A study of Homo sapiens with 12 samples.

Results

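The genes described here build and run the DNA replication fork: the factors that mark and license origins, the helicase and the factors that fire it, the polymerases, the sliding clamp and its loader, the enzymes that join lagging-strand fragments, the chromatin assembly factor, and the enzymes that supply deoxynucleotides. They were taken from a list of 47 gene symbols, with each gene represented by the probe set of highest mean level over the 12 arrays among those annotated to that symbol alone. All 47 were on the array, of 11963 genes tested. The samples were RCC4 cells, a human line derived from a clear cell kidney carcinoma, whose parental cells lack a functional VHL tumour suppressor. The design held 4 groups of 3 arrays each: VHL deprived (VHL reintroduced, 6 h in DMEM without cystine), VHL control (VHL reintroduced, full DMEM), Vec deprived (empty vector, 6 h without cystine) and Vec control (empty vector, full DMEM). All 4 groups therefore shared the RCC4 background, and the labels give 6 h for the control groups too. The serum was 10% in both media, and dialysed serum was named for the deprived medium alone, so loss of cystine and a change of serum cannot be told apart if the control serum was not dialysed. The labels call the replicates biological without saying whether they came from separate cultures, nor whether the Vec and VHL lines are single clones or pools. P-values then measure only the spread between these samples, which may be technical, and an effect of VHL and any other difference between the lines cannot be told apart.

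Replication starts at origins bound by the origin recognition complex (ORC). In G1, ORC, CDC6 and CDT1 load the ring of MCM2 to MCM7 onto DNA, a step called licensing that geminin later blocks by binding CDT1. In S phase the kinase CDC7 with DBF4 and the cyclin-dependent kinases turn the ring into an active helicase by recruiting CDC45 and the GINS complex, and polymerase alpha with primase lays primers that polymerases delta and epsilon extend on the PCNA clamp. Many of these genes are targets of E2F transcription factors and are transcribed most strongly around the entry into S phase. In RNA from whole cultures, a lower level per cell and fewer cells at the stage that expresses a gene cannot be told apart.

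Levels are the deposited log2 values and changes are differences between group means with the standard error of the fit. The word called marks a gene whose limma p-value stayed under 0.05 after Benjamini-Hochberg adjustment across 11963 genes. The replication genes were bright, with a median level of 9.92 against 7.82 over all genes. The dimmest, PRIM2, lay at the 40.0th percentile of gene levels, under the brightest of the measured markers of other cell types (40.3rd). Array medians ran from 7.12 to 7.18 over the 12 arrays. The 8 markers of this kidney carcinoma line lay at group means of 7.95 to 14.32 (PAX8 averaged 10.92 and VIM 14.23), and the 11 measured markers of blood, endothelium, liver and neurons at 4.32 to 7.04, with PTPRC averaging 4.38 and KDR 4.39. The array's probe set for VHL gave 5.99 in VHL control cells and 5.85 in Vec control cells (difference 0.14, limma adjusted p = 0.0532), a level within the range of the markers of other cell types, so it does not check the labels.

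After 6 h without cystine, replication genes moved down more often than up in both lines. In Vec cells 8 of 47 fell and 0 rose, or 17.0%, against 2.06% lower and 2.11% higher, 4.18% in all, among all genes. In VHL cells 14 of 47 fell (29.8%) and 3 rose (6.38%), against 5.48% lower and 6.16% higher, 11.6% in all, among all genes. The share that rose in VHL cells was thus near that of all genes. The steepest falls were in GMNN (geminin), MCM10 (an initiation factor) and GINS1 (a helicase subunit), all between -0.60 and -0.34 on the log2 scale. The median change of the 47 genes was -0.10 in Vec cells and -0.11 in VHL cells, against 0.01 in each line over all genes. The change was negative for 40 genes in Vec cells, for 36 in VHL cells and for 34 in both, against 47.6%, 45% and 28.3% of all genes. Among the 8374 genes above the 30th percentile of level, which all 47 passed, 4.25% fell in Vec cells and 10.2% in VHL cells, against 9 and 17 of the 47. The count of 8 in Vec cells dropped to 5 without Vec control replicate 1, 4 without Vec control replicate 2 and 3 without Vec deprived replicate 1 or 2, and the count of 14 in VHL cells to 9 without VHL control replicate 1 or 2.

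**Figure D1:**
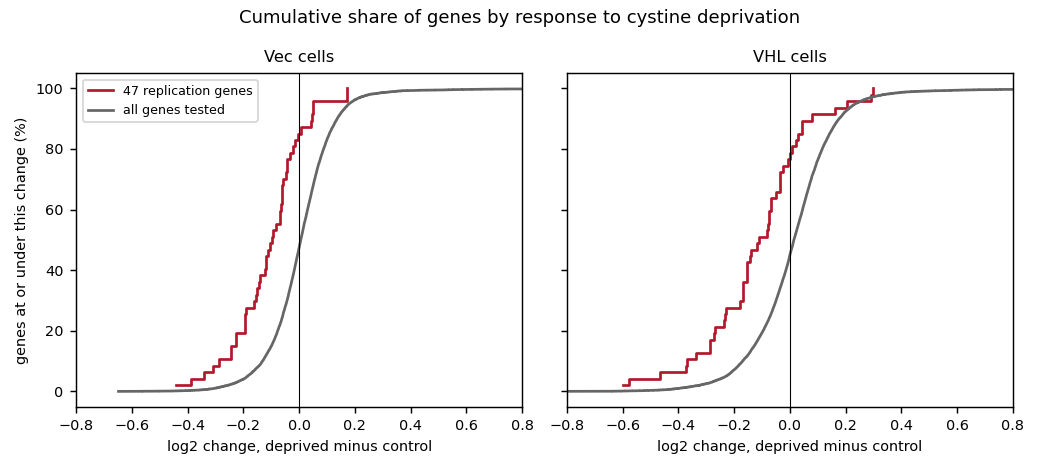
Cumulative share of genes (vertical axis, %) by log2 change, deprived minus control medium (horizontal axis), in Vec cells on the left and VHL cells on the right, for the 47 replication genes (red) and all 11963 genes (grey); changes beyond 0.8 in size are outside the axis. The red curve lies left of the grey one through most of its length, with medians of -0.10 and -0.11 against 0.01 in each line.

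Array by array the same shift was visible. The mean level of the 47 genes ran from 9.92 to 9.96 in Vec deprived cells, against 10.03 to 10.08 in Vec control cells, and from 9.91 to 9.94 in VHL deprived cells, against 10.03 to 10.07 in VHL control cells. The deprived and control arrays of a line did not overlap in this mean. Over all genes the mean stayed between 7.87 and 7.90 on every array. All 3 deprived arrays lay below all 3 control arrays for 19 of 47 genes in Vec cells, against 10.7% of all genes, and for 22 of 47 in VHL cells, against 14% of all genes. All 3 lay above for 2 and 4 of the 47, against 11.9% and 16.5% of all genes. Median centring of the arrays turned the VHL deprivation calls among all genes to 550 higher and 873 lower, against 737 and 655 as deposited, and the replication genes gave 3 higher and 17 lower.

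**Figure D2:**
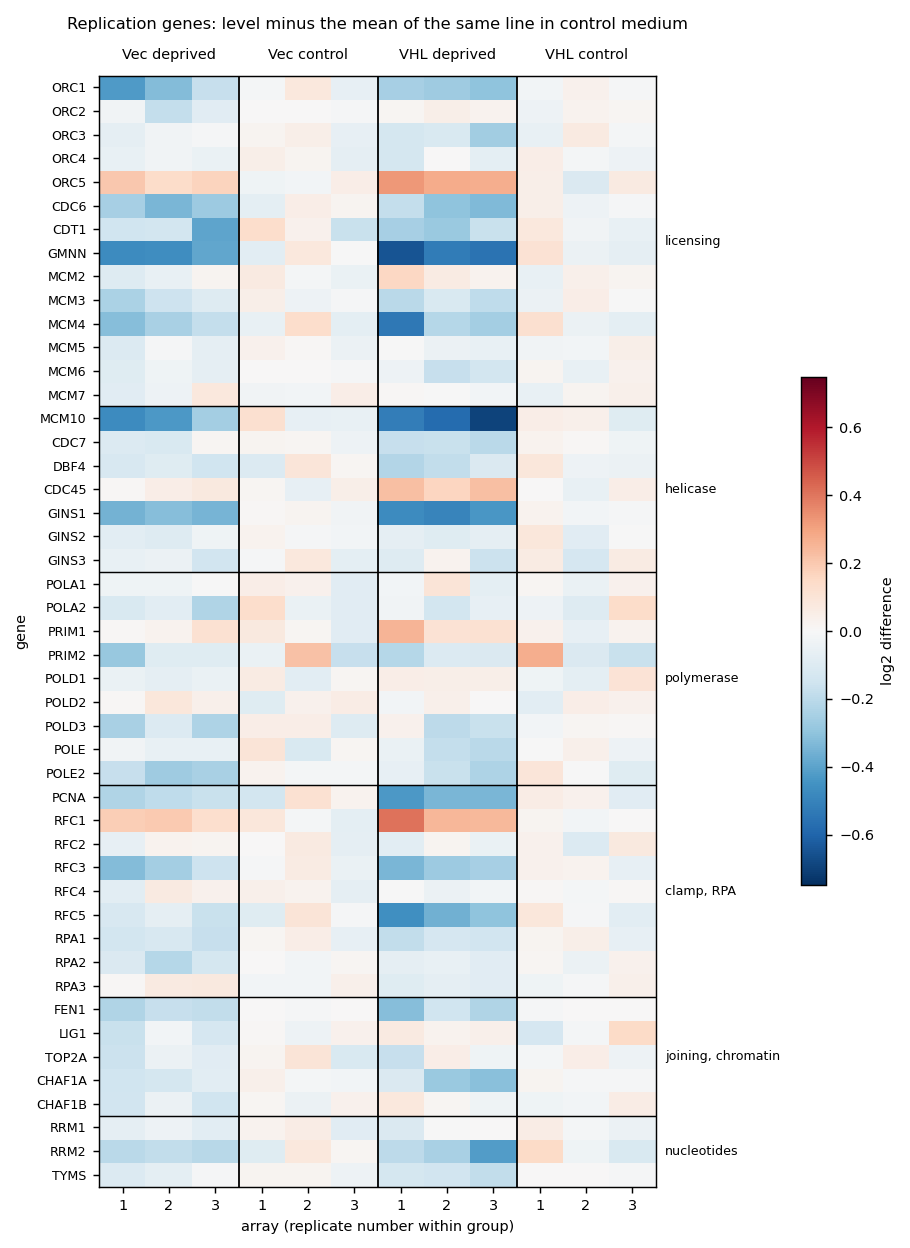
Level of each of the 47 replication genes (rows, ordered by role) on each of the 12 arrays (columns) minus the mean of the 3 control arrays of the same line, in log2 units (blue lower, red higher). Deprived arrays of both lines are blue in the rows of ORC1, CDC6, GMNN, MCM10, GINS1, RFC3 and FEN1, and red in those of ORC5 and RFC1.

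A total of 7 genes fell in both lines: ORC1, CDC6 and GMNN of licensing, MCM10 and GINS1 of helicase activation, RFC3 of the clamp loader, and the flap nuclease FEN1. They made up 87.5% of the 8 that fell in Vec cells and 50% of the 14 that fell in VHL cells. Over all genes, 147 fell in both lines, which is 59.5% of the 247 that fell in Vec cells and 22.4% of the 655 that fell in VHL cells. These comparisons share no arrays, but the pooled spread of each gene enters both. POLE2 was called in Vec cells and not in VHL cells, and CDC7, CHAF1A, MCM4, PCNA, RFC5, RRM2 and TYMS in VHL cells and not in Vec cells. The test of the difference between the responses called none of the 47, so no gene was shown to respond in a single line.

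**Figure D3:**
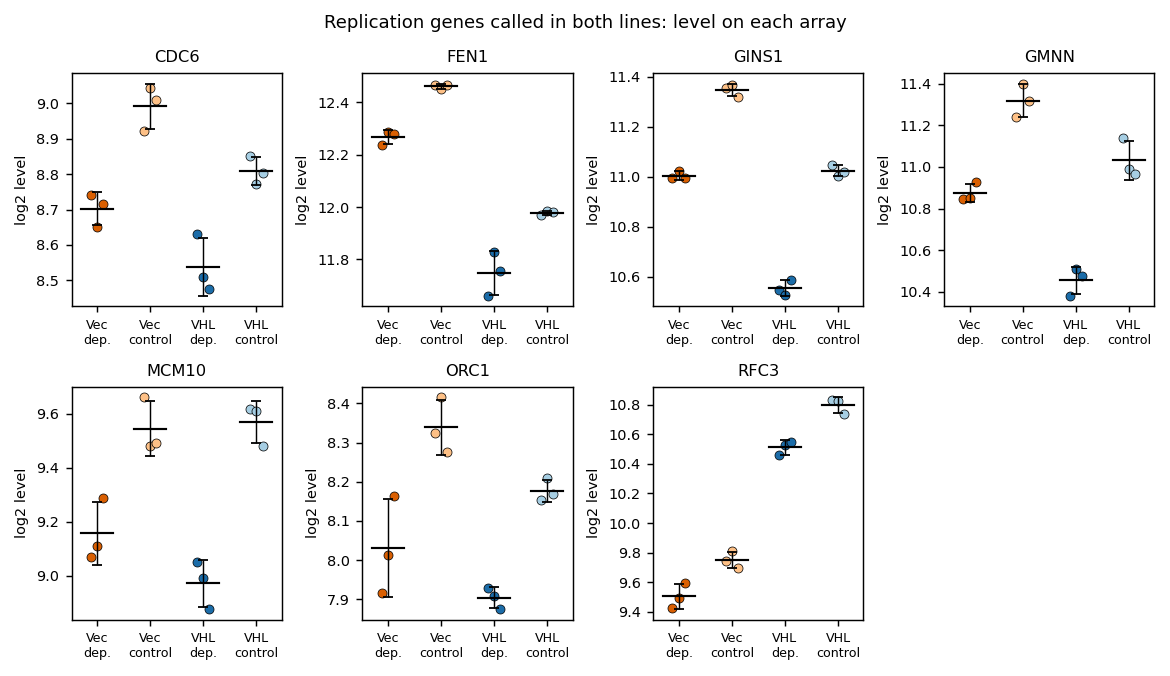
Log2 level on each array (points) of the 7 replication genes called in both lines, with the mean (long bar) and SD (whiskers) of 3 arrays per group; each panel has its own vertical axis. In every panel the deprived arrays of a line lie below its control arrays, and RFC3 stands about 1 log2 unit higher in VHL than in Vec cells in both media.

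The promoters of genes that moved together are shown for 4 of the 7, because E2F factors are the known regulators of this group: GINS1, CDC6 and RFC3, whose windows hold an E2F consensus, and GMNN, which fell in both lines and whose window holds none. Each line is 250 bases before and 50 bases from the RefSeq start site on, 5′ to 3′ on the strand of the gene. Capitals mark E2F consensus letters (TTTCCCGC, TTTCGCGC, TTTGCCGC or TTTGGCGC on either strand) and CCAAT boxes (CCAAT on either strand).
GINS1: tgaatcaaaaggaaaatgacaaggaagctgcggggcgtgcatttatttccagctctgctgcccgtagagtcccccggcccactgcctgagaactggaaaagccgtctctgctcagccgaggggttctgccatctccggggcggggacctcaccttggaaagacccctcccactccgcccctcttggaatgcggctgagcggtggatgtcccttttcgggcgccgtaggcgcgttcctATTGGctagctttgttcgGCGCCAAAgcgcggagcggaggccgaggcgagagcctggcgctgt
CDC6: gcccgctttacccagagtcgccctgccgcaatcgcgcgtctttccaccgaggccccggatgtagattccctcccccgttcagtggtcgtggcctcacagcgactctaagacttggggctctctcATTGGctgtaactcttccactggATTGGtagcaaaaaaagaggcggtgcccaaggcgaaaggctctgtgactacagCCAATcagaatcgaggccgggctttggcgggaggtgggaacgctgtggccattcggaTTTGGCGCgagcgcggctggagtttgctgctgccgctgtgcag
RFC3: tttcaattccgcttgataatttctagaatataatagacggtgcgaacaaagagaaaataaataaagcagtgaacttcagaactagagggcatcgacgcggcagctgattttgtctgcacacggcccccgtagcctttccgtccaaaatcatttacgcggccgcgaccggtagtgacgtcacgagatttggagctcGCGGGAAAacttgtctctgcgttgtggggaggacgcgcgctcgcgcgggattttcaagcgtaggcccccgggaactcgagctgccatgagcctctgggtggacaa
GMNN: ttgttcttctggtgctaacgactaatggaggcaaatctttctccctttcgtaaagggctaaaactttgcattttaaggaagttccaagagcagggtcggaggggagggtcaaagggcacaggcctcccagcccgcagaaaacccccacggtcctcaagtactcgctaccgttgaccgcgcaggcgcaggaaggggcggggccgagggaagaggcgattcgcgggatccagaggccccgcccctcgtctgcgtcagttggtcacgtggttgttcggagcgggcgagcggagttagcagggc
The windows, from RefSeq on GRCh38.p14, are chr20:25407423-25407722, plus strand for GINS1; chr17:40287629-40287928, plus strand for CDC6; chr13:33817899-33818198, plus strand for RFC3; and chr6:24774687-24774986, plus strand for GMNN. Counting the start-site base as position 0, the E2F letters begin at position 5 in GINS1, at position 7 in CDC6 and at position -55 in RFC3.

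Promoter windows were found for 42 of the 47 genes. The E2F letters were in 18 of them (42.9%), against 4.88% of 9563 promoters of genes tested here and 3.33% of all 27305 promoters in the table. CCAAT was in 23 of 42 (54.8%), against 37.3% and 35.7%. E2F letters were in 3 of the 7 genes that fell in both lines and in 15 of the other 35, which is 42.9% in each case. The shares of genes with the letters were thus equal in both sets. A match describes letters and shows neither a bound site nor a cause. MCM4, MCM5, POLD3, RPA2 and RPA3 are not in this count.

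Among the 14 licensing genes, 3 fell in Vec cells and 0 rose, and 4 fell and 1 rose in VHL cells. The shares of all genes for this and the other roles are 2.06% lower and 2.11% higher in Vec cells, and 5.48% and 6.16% in VHL cells. GMNN, geminin, the inhibitor of CDT1, was the gene of the 47 that fell most in Vec cells. It measured 10.85, 10.85 and 10.93 in Vec deprived cells, against 11.24, 11.40 and 11.31 in Vec control cells. In VHL cells it measured 10.38, 10.51 and 10.48 in VHL deprived cells, against 11.14, 10.99 and 10.96 in VHL control cells. Deprived and control arrays were well apart in both lines, and the changes were -0.44 ± 0.06 (limma adjusted p = 0.00122) and -0.58 ± 0.06 (limma adjusted p = 6.76e-05). CDC6, the ATPase that loads MCM rings together with CDT1, measured 8.74, 8.65 and 8.72 in Vec deprived cells, against 8.92, 9.04 and 9.01 in Vec control cells. Its VHL arrays gave 8.63, 8.51 and 8.47 in VHL deprived cells, against 8.85, 8.77 and 8.80 in VHL control cells. No array of a deprived group reached a control array of the same line, with changes of -0.29 ± 0.05 and -0.27 ± 0.05 (limma adjusted p = 0.0101 and 0.00703). The second CDC6 probe set, nearly as bright, gave -0.10 and -0.17 in Vec and VHL cells, and with it in place of the first the calls were lost in both lines (limma adjusted p = 0.534 and 0.118). In Vec cells the CDC6 call was also lost without Vec deprived replicate 2 (limma adjusted p = 0.0502).

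ORC1, the ORC subunit whose level varies most through the cell cycle in human cells, measured 7.91, 8.01 and 8.16 in Vec deprived cells, against 8.32, 8.42 and 8.28 in Vec control cells. In the VHL line it measured 7.93, 7.91 and 7.88 in VHL deprived cells, against 8.15, 8.21 and 8.17 in VHL control cells. The highest deprived array stayed under the lowest control array in each line, and the changes were -0.31 ± 0.06 (limma adjusted p = 0.0146) and -0.27 ± 0.06 (limma adjusted p = 0.0138). The Vec call was lost without Vec control replicate 2 (limma adjusted p = 0.0624), Vec deprived replicate 1 (0.0621) or Vec deprived replicate 2 (0.0553) and the VHL call without VHL control replicate 2 (limma adjusted p = 0.052). ORC5, another ORC subunit, went the other way. It measured 10.08, 10.04 and 10.03 in VHL deprived cells, against 9.80, 9.65 and 9.82 in VHL control cells, a rise of 0.29 ± 0.05 (limma adjusted p = 0.00366), and 10.06, 9.99 and 10.02 in Vec deprived cells, against 9.82, 9.83 and 9.90 in Vec control cells, a difference of 0.17 ± 0.05 that was not called (limma adjusted p = 0.0997). Its groups did not overlap in either line. With the mean of its 3 probe sets the rise in VHL cells was 0.16 and not called (limma adjusted p = 0.06). ORC2, ORC3 and ORC4, further ORC subunits, gave between -0.17 and 0.03 in both lines and were not called.

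Of the 6 genes of the MCM ring, limma called 1 in VHL cells and 0 in Vec cells. In Vec cells MCM3 and MCM4 had an unadjusted p under 0.05, as did 16.6% of all genes. MCM4 fell in VHL cells, measuring 10.06, 10.38 and 10.35 in VHL deprived cells, against 10.72, 10.55 and 10.52 in VHL control cells, a change of -0.34 ± 0.09 (limma adjusted p = 0.028). VHL deprived replicate 1 was the lowest of these arrays, and the call was lost without VHL control replicate 1 (limma adjusted p = 0.112), VHL control replicate 2 (0.0556) or VHL deprived replicate 1 (0.0951). It was also lost without _x_at and _s_at probe sets (-0.15, limma adjusted p = 0.116) and with the compared groups alone (0.0698). In Vec cells MCM4 measured 10.03, 10.11 and 10.17 in Vec deprived cells, against 10.30, 10.48 and 10.28 in Vec control cells, with a difference of -0.25 ± 0.09 (limma adjusted p = 0.165), and it was called there with the mean of its 4 probe sets (-0.21, limma adjusted p = 0.0445). MCM3 gave -0.16 in Vec and -0.17 in VHL cells (limma adjusted p = 0.11 and 0.0512), with deprived arrays below control arrays in each line. MCM2, MCM5, MCM6 and MCM7 gave between -0.12 and 0.08 in both lines, and the widest of their 95% intervals ended at -0.22 and 0.20. CDT1, the loader that geminin inhibits, gave -0.23 ± 0.08 in Vec and -0.23 ± 0.08 in VHL cells, neither called (limma adjusted p = 0.176 and 0.0963).

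Of the 7 genes of origin firing and helicase activation, 2 fell in Vec cells and 0 rose, and 3 fell and 1 rose in VHL cells. MCM10, which helps to switch on the assembled helicase, fell more in VHL cells than any other of the 47. Its levels were 9.05, 8.99 and 8.88 in VHL deprived cells, against 9.62, 9.61 and 9.48 in VHL control cells, a change of -0.60 ± 0.07 (limma adjusted p = 2.35e-04). In Vec cells they were 9.07, 9.11 and 9.29 in Vec deprived cells, against 9.66, 9.48 and 9.49 in Vec control cells, a change of -0.39 ± 0.07 (limma adjusted p = 0.0107). The control arrays of both lines overlapped in level, and the deprived arrays lay below them. Leaving out Vec control replicate 1 ended the Vec call (limma adjusted p = 0.0515), as did leaving out Vec deprived replicate 1 (0.0537). GINS1, a subunit of the GINS complex, had the smallest adjusted p of the 47 in both lines. It measured 10.99, 11.02 and 10.996 in Vec deprived cells, against 11.36, 11.36 and 11.32 in Vec control cells, and 10.55, 10.53 and 10.59 in VHL deprived cells, against 11.05, 11.005 and 11.02 in VHL control cells. The 3 arrays of each group lay close together relative to the change, and the changes were -0.34 ± 0.04 (limma adjusted p = 3.96e-04) and -0.47 ± 0.04 (limma adjusted p = 1.36e-05). GINS2 and GINS3, subunits of the same complex, gave between -0.08 and -0.07 and were not called in either line.

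CDC7, the catalytic subunit of the kinase that activates MCM rings, fell in VHL cells, with a change of -0.18 ± 0.05 (limma adjusted p = 0.0286), measuring 8.82, 8.83 and 8.79 in VHL deprived cells, against 9.02, 9.002 and 8.96 in VHL control cells. In Vec cells it gave -0.07 ± 0.05 (limma adjusted p = 0.537). The VHL call was lost without 5 of the 6 arrays in turn, all but VHL control replicate 3 (limma adjusted p 0.0582 to 0.095). DBF4, the activating partner of CDC7, gave -0.12 and -0.17 and was not called. CDC45, which joins MCM and GINS in the active helicase, rose in VHL cells, where it measured 8.54, 8.47 and 8.54 in VHL deprived cells, against 8.32, 8.26 and 8.36 in VHL control cells. The rise was 0.20 ± 0.05 (limma adjusted p = 0.0157), and it was lost without VHL control replicate 2 (limma adjusted p = 0.0661), VHL deprived replicate 1 (0.0554) or VHL deprived replicate 3 (0.0534). In Vec cells CDC45 measured 8.96, 9.002 and 9.02 in Vec deprived cells, against 8.97, 8.89 and 8.99 in Vec control cells, and these groups overlapped (difference 0.04, limma adjusted p = 0.718). CDC45 and GINS1, whose products are parts of the same helicase, thus took opposite directions in VHL cells.

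Among the 9 polymerase and primase genes, 1 fell in Vec cells and none was called in VHL cells. That gene was POLE2, an accessory subunit of polymerase epsilon. It measured 8.21, 8.11 and 8.14 in Vec deprived cells, against 8.41, 8.37 and 8.37 in Vec control cells, a change of -0.23 ± 0.06 (limma adjusted p = 0.0466), and 8.79, 8.68 and 8.61 in VHL deprived cells, against 8.94, 8.84 and 8.76 in VHL control cells, where it gave -0.15 ± 0.06 (limma adjusted p = 0.11). The Vec groups did not overlap, but the call was lost without any 1 of the 6 arrays (limma adjusted p 0.0734 to 0.155) and with median centring (0.0539). It was also lost without _x_at and _s_at probe sets (limma adjusted p = 0.0642). There 8369 genes were tested, while the only POLE2 probe set, and so its change, stayed the same. The catalytic subunits POLA1, POLD1 and POLE gave between -0.14 and 0.04 over both lines. The primase subunit PRIM1 gave 0.05 and 0.16, and PRIM2, the dimmest of the 47, -0.15 and -0.14, in Vec and VHL cells. POLA2, POLD2 and POLD3, accessory subunits, gave between -0.19 and 0.04. In VHL cells limma called none of the 9. At an unadjusted p under 0.05, POLE and POLE2 were lower and PRIM1 higher there, against 26.8% of all genes in either direction. None of the 9 was called in VHL cells under any alternative.

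Among the 9 genes of the clamp, its loader and the single-strand binding protein RPA, 1 fell in Vec cells and 0 rose, and 3 fell and 1 rose in VHL cells. RFC3, a small subunit of the clamp loader, measured 9.42, 9.50 and 9.596 in Vec deprived cells, against 9.74, 9.81 and 9.70 in Vec control cells. In VHL cells it measured 10.46, 10.52 and 10.55 in VHL deprived cells, against 10.83, 10.82 and 10.74 in VHL control cells. Both pairs of groups were separate, with changes of -0.25 ± 0.06 (limma adjusted p = 0.0272) and -0.29 ± 0.06 (limma adjusted p = 0.00556). In Vec cells the call was lost without Vec control replicate 1 (limma adjusted p = 0.0799), Vec control replicate 2 (0.106), Vec deprived replicate 1 (0.108) or Vec deprived replicate 2 (0.0879). PCNA, the sliding clamp itself, fell in VHL cells, with 12.19, 12.28 and 12.28 in VHL deprived cells, against 12.68, 12.65 and 12.54 in VHL control cells, a change of -0.37 ± 0.06 (limma adjusted p = 0.0028). In Vec cells it measured 12.44, 12.47 and 12.49 in Vec deprived cells, against 12.53, 12.78 and 12.69 in Vec control cells, a difference of -0.20 ± 0.06 (limma adjusted p = 0.123). No deprived array overlapped the controls of its line. Without Vec control replicate 1 PCNA was called in Vec cells, at -0.26 (limma adjusted p = 0.0453).

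RFC5, another small subunit of the loader, measured 10.09, 10.20 and 10.25 in VHL deprived cells, against 10.64, 10.54 and 10.48 in VHL control cells, a change of -0.37 ± 0.06 (limma adjusted p = 0.00246), whereas its Vec arrays, at 10.54, 10.59 and 10.49 in Vec deprived cells, against 10.57, 10.76 and 10.65 in Vec control cells, overlapped (difference -0.12 ± 0.06, limma adjusted p = 0.389). Its 3 probe sets gave different values in VHL cells. The brightest gave -0.37, a probe set nearly as bright gave -0.13 and the dimmest 0.08, and their mean was not called (-0.14, limma adjusted p = 0.0539). RFC1, the large subunit, rose in VHL cells, measuring 9.43, 9.28 and 9.27 in VHL deprived cells, against 9.05, 9.005 and 9.03 in VHL control cells, by 0.30 ± 0.06 (limma adjusted p = 0.0051). Its Vec arrays gave 9.65, 9.65 and 9.59 in Vec deprived cells, against 9.55, 9.45 and 9.38 in Vec control cells, a difference of 0.17 ± 0.06 that was not called (limma adjusted p = 0.132), although the groups did not overlap. Among probe sets not ending in _x_at or _s_at, RFC1 had only a dim one, which gave 0.04 in VHL cells (limma adjusted p = 0.779). RFC2 and RFC4 gave between -0.04 and 0.01, and RPA1, RPA2 and RPA3, which coat single-stranded DNA, between -0.15 and 0.05, without a call in either line.

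FEN1, which trims the flaps between lagging-strand fragments, fell in both lines. Its levels were 12.24, 12.29 and 12.28 in Vec deprived cells, against 12.47, 12.45 and 12.47 in Vec control cells, and 11.66, 11.83 and 11.75 in VHL deprived cells, against 11.97, 11.98 and 11.98 in VHL control cells. The groups were separate in both lines, and the changes were -0.19 ± 0.05 (limma adjusted p = 0.0411) and -0.23 ± 0.05 (limma adjusted p = 0.00836). The Vec call was lost without any 1 of the 6 arrays (limma adjusted p 0.0875 to 0.135). The second FEN1 probe set gave -0.26 and -0.25. CHAF1A, the large subunit of the chromatin assembly factor that places histones behind the fork, measured 9.25, 9.08 and 9.05 in VHL deprived cells, against 9.38, 9.35 and 9.35 in VHL control cells, a change of -0.23 ± 0.05 (limma adjusted p = 0.0162). In Vec cells it measured 9.47, 9.49 and 9.54 in Vec deprived cells, against 9.66, 9.602 and 9.597 in Vec control cells, with a difference of -0.12 ± 0.05 (limma adjusted p = 0.289). All 3 CHAF1A probe sets gave between -0.31 and -0.23 in VHL cells. The VHL call was lost without VHL control replicate 1 (limma adjusted p = 0.0599), VHL deprived replicate 2 (0.0582) or VHL deprived replicate 3 (0.066). Its partner CHAF1B gave -0.11 and 0.02, LIG1, the ligase that seals the fragments, -0.10 and 0.04, and TOP2A, which untangles the daughter strands, -0.10 and -0.05, in Vec and VHL cells, without a call.

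The 3 genes of nucleotide supply were among the brightest of the 47. RRM2, the regulated subunit of ribonucleotide reductase, measured 11.80, 11.75 and 11.58 in VHL deprived cells, against 12.14, 11.96 and 11.88 in VHL control cells, a change of -0.29 ± 0.07 (limma adjusted p = 0.0257), and 12.28, 12.30 and 12.27 in Vec deprived cells, against 12.39, 12.56 and 12.49 in Vec control cells, a difference of -0.20 ± 0.07 that was not called (limma adjusted p = 0.186). Its deprived and control arrays did not overlap in either line. The call in VHL cells was lost without VHL control replicate 1 (limma adjusted p = 0.105), VHL control replicate 2 (0.0554) or VHL deprived replicate 3 (0.094), and with the mean of its 2 probe sets RRM2 was also called in Vec cells (-0.23, limma adjusted p = 0.0397). TYMS, thymidylate synthase, which makes the DNA precursor dTMP, fell in VHL cells, with a change of -0.15 ± 0.04, (limma adjusted p = 0.0398) and gave -0.06 ± 0.04 in Vec cells (limma adjusted p = 0.537). Its levels were 13.03, 13.02 and 12.98 in VHL deprived cells, against 13.17, 13.17 and 13.15 in VHL control cells. The VHL call was lost without any 1 of the 6 arrays (limma adjusted p 0.0668 to 0.118) and with quantile normalization (limma adjusted p = 0.0644). Its second, dim probe set gave 0.11 in VHL cells, and the mean of both gave -0.02 (limma adjusted p = 0.807). RRM1, the large subunit of the reductase, gave -0.06 and -0.04 and was not called in Vec or VHL cells.

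**Figure D4:**
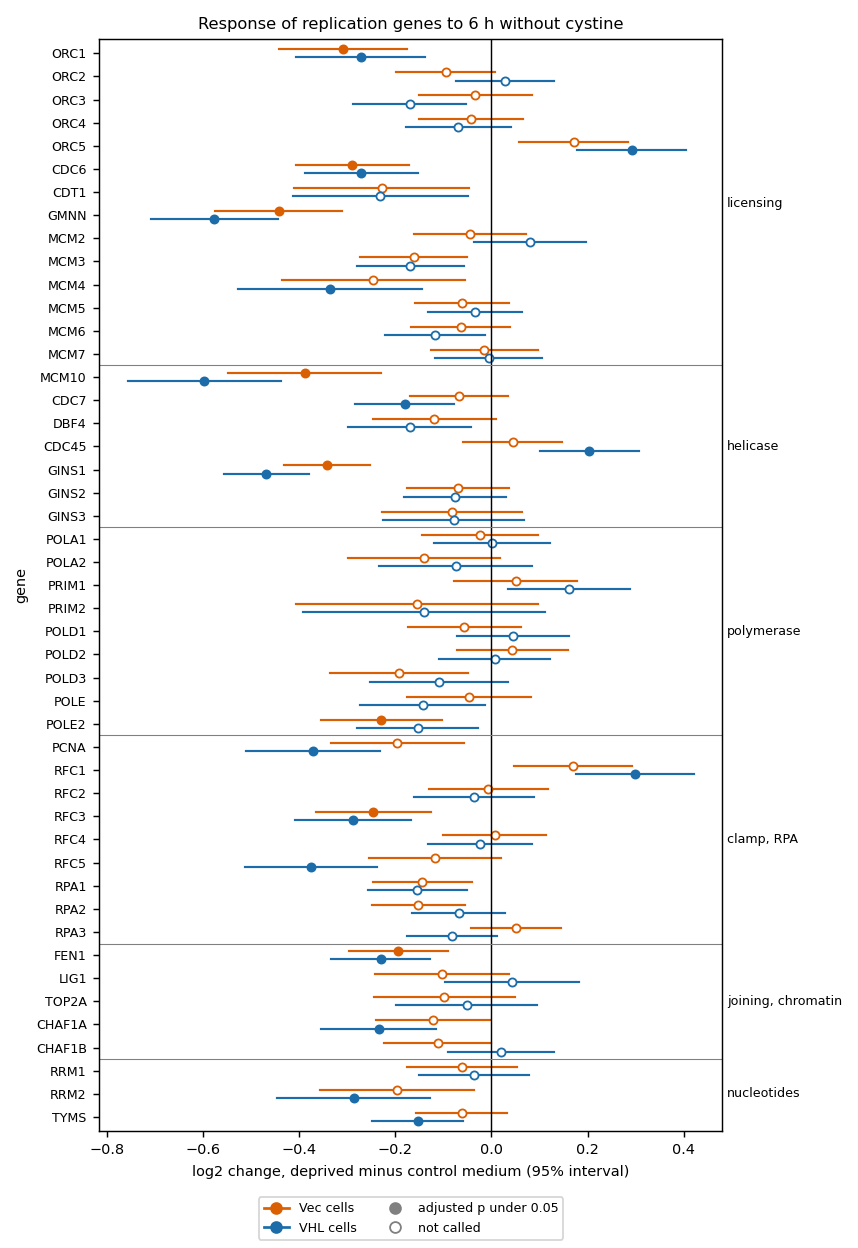
Log2 change with its 95% interval (horizontal axis), deprived minus control medium, of each replication gene (vertical axis, ordered by role) in Vec cells (orange) and VHL cells (blue); filled points are called at an adjusted p under 0.05. Filled points number 8 in Vec cells, all left of 0, and 17 in VHL cells, of which ORC5, CDC45 and RFC1 lie right of 0.

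The difference between the responses of the lines, VHL minus Vec, was called for 0 of 47 replication genes, against 0.134% of all genes (16 of 11963) in limma. At an unadjusted p under 0.05 it was nominally different for 4 of 47 (RFC5, GINS1, RPA3 and CDC45), against 9.83% of all genes. The lowest adjusted p among the 47 was 0.373. RFC5 had the largest difference in size, -0.26 ± 0.09, and MCM10 gave -0.21 ± 0.10 (95% interval -0.43 to 0.02). For GINS1 the difference was -0.13 ± 0.06, for GMNN -0.13 ± 0.09 (-0.32 to 0.05) and for PCNA -0.18 ± 0.09 (-0.37 to 0.02). These intervals are wide relative to the responses, so equal responses were not shown. None of the 47 was called under any alternative.

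VHL and Vec cells differed in many replication genes, in both directions. In control medium 15 of 47 (31.9%) were higher and 18 (38.3%) lower in VHL cells, against 23.1% higher and 23% lower, 46.1% in all, among all genes. In deprived medium 15 were higher and 17 (36.2%) lower, against 24.2% and 23%, 47.2% in all, of all genes. Among the 8374 genes that passed the filter on level, as all 47 did, 32% were higher and 31.2% lower in control medium. With this filter 17 of the 47 were higher and 18 lower there. In deprived medium 32.6% of these genes were higher and 31% lower, against 15 and 18 of the 47. The shares of the 47 were thus nearer to those of these brighter genes than to those of all genes. All VHL arrays lay above all Vec arrays for 17 of 47 genes in control medium, against 26.7% of all genes, and for 15 in deprived medium, against 27.9%. They lay below for 19 in control medium, against 26.5%, and for 19 in deprived medium, against 26.4%. The largest differences were RFC3, higher in VHL cells by 1.05, and POLA1, lower by a log2 difference of -1.08, in control medium. The median difference was 0.00 in control and 0.01 in deprived medium for the 47 genes, against 0.00 in each medium over all genes. The sign was the same in both media for 43 of 47 (91.5%), against 79.3% of all genes. These comparisons share no arrays, but they share the pooled spread of each gene. Of the 15 genes higher in control medium, 13 (86.7%) were also called higher in deprived medium, against 85.6% over all genes, and of the 18 lower, 15 (83.3%), against 83.1%. These overlaps were thus near those of all genes.

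**Figure D5:**
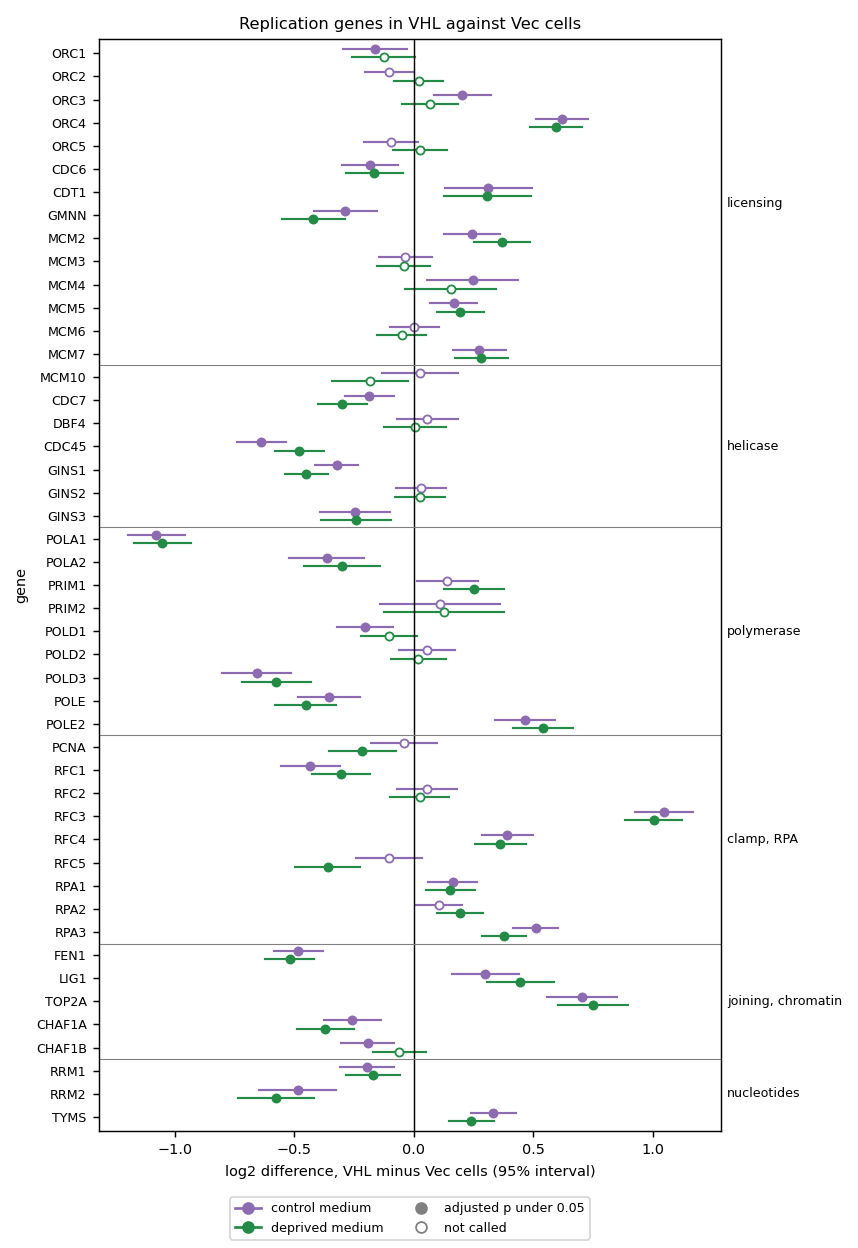
Log2 difference with its 95% interval (horizontal axis), VHL minus Vec cells, of each replication gene (vertical axis, ordered by role) in control medium (purple) and deprived medium (green); filled points are called at an adjusted p under 0.05. Points run from -1.08 for POLA1 to 1.05 for RFC3 in control medium. The points of a gene in the 2 media are furthest apart for RFC5, at -0.10 in control and -0.36 in deprived medium.

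Among the 14 licensing genes, 7 (50%) were higher and 3 (21.4%) lower in VHL control than in Vec control cells, against 23.1% and 23% of all genes, so the share lower was near that of all genes. ORC4, an ORC subunit, measured 10.58, 10.51 and 10.49 in VHL control cells, against 9.95, 9.93 and 9.84 in Vec control cells. In deprived medium it measured 10.40, 10.53 and 10.45 in VHL deprived cells, against 9.85, 9.88 and 9.86 in Vec deprived cells. The groups were far apart in both media, with differences of 0.62 ± 0.05 (limma adjusted p = 2.60e-07) and 0.59 ± 0.05 (limma adjusted p = 3.97e-07). Of the MCM ring, MCM7 was higher by 0.27 ± 0.05 and 0.28 ± 0.05, MCM2 by 0.24 ± 0.05 and 0.37 ± 0.05, and MCM5 by 0.17 ± 0.05 and 0.19 ± 0.05, in control and deprived medium. MCM2 measured 11.25, 11.34 and 11.32 in VHL control cells, against 11.12, 11.04 and 11.01 in Vec control cells, and 11.46, 11.36 and 11.33 in VHL deprived cells, against 10.96, 11.001 and 11.07 in Vec deprived cells, and all its VHL arrays were above all its Vec arrays in each medium. MCM3 and MCM6 gave between -0.05 and 0.00 and were not called, and MCM4 was called in control medium (0.25 ± 0.09, limma adjusted p = 0.0348) but not without Vec control replicate 1 (limma adjusted p = 0.109), Vec control replicate 3 (0.12), VHL control replicate 1 (0.138) or VHL control replicate 2 (0.0511). Nor was it called there with the mean of its probe sets (0.13, limma adjusted p = 0.0566) or without _x_at and _s_at probe sets (0.09, 0.248), where the control-medium call of MCM5 was lost too (0.0558). CDT1 measured 8.47, 8.36 and 8.33 in VHL control cells, against 8.21, 8.11 and 7.91 in Vec control cells, higher by 0.31 ± 0.08 (limma adjusted p = 0.0074), and in deprived medium it measured 8.14, 8.11 and 8.22 in VHL deprived cells, against 7.93, 7.94 and 7.68 in Vec deprived cells, a difference of 0.31 ± 0.08, with no overlap in either medium. Its inhibitor GMNN was lower in VHL cells, at -0.29 and -0.42 (limma adjusted p = 0.00147 and 6.25e-05).

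CDC6 was lower in VHL cells at -0.18 and -0.16 in control and deprived medium (limma adjusted p = 0.0132 and 0.0234). The calls were lost without Vec control replicate 2 (limma adjusted p = 0.0534) or VHL control replicate 2 (0.0506) in control medium, and without Vec deprived replicate 1 (limma adjusted p = 0.0805), Vec deprived replicate 3 (0.0604), VHL deprived replicate 2 (0.0751) or VHL deprived replicate 3 (0.0982) in deprived medium. ORC1 was lower in control medium at -0.16 (limma adjusted p = 0.046), a call lost without Vec control replicate 1 (limma adjusted p = 0.0792), Vec control replicate 2 (0.165), VHL control replicate 1 (0.113), VHL control replicate 2 (0.0635) or VHL control replicate 3 (0.0998) and with quantile normalization (0.111), median centring (0.103) or trend and robust moderation (0.0504). ORC3 was higher in control medium by 0.20 ± 0.05 (limma adjusted p = 0.0068). ORC2 and ORC5 were not called in either medium, with values from -0.10 to 0.03.

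Of the 7 helicase genes, 4 (57.1%) were lower in VHL cells in each medium and 0 were higher, against 23% lower and 23.1% higher among all genes in control medium. CDC45 measured 8.32, 8.26 and 8.36 in VHL control cells, against 8.97, 8.89 and 8.99 in Vec control cells, and 8.54, 8.47 and 8.54 in VHL deprived cells, against 8.96, 9.002 and 9.02 in Vec deprived cells. Its VHL arrays lay below its Vec arrays in both media, with differences of -0.64 ± 0.05 and -0.48 ± 0.05 (limma adjusted p = 1.25e-07 and 1.85e-06). GINS1, whose arrays are given above, was lower with differences of -0.32 ± 0.04 and -0.45 ± 0.04. GINS3 gave -0.25 and -0.24, and CDC7 -0.19 and -0.30, all called. CDC7 measured 8.82, 8.83 and 8.79 in VHL deprived cells, against 9.08, 9.06 and 9.20 in Vec deprived cells, and 9.02, 9.002 and 8.96 in VHL control cells, against 9.20, 9.20 and 9.15 in Vec control cells, with VHL arrays below Vec arrays. MCM10, DBF4 and GINS2 were not called in either medium. MCM10 gave -0.18 in deprived medium (limma adjusted p = 0.0547) and was called there without Vec deprived replicate 1 (-0.23, 0.0376) or VHL deprived replicate 1 (-0.22, 0.0405).

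Polymerase genes held some of the widest differences between the lines. POLA1, the catalytic subunit of polymerase alpha, which starts every new strand, measured 8.16, 8.10 and 8.18 in VHL control cells, against 9.27, 9.25 and 9.14 in Vec control cells. In deprived medium it measured 8.12, 8.24 and 8.07 in VHL deprived cells, against 9.19, 9.19 and 9.22 in Vec deprived cells. No VHL array came near a Vec array, and the differences were -1.08 ± 0.06 (limma adjusted p = 3.73e-09) and -1.05 ± 0.06 (limma adjusted p = 4.43e-09), or 0.474-fold and 0.482-fold. POLA2, its regulatory subunit, measured 8.87, 8.81 and 9.04 in VHL control cells, against 9.41, 9.22 and 9.19 in Vec control cells, and 8.88, 8.77 and 8.85 in VHL deprived cells, against 9.16, 9.19 and 9.05 in Vec deprived cells, with differences of -0.36 in control and -0.30 in deprived medium (limma adjusted p = 9.44e-04 and 0.00391). POLD3, an accessory subunit of polymerase delta, measured 9.001, 9.04 and 9.03 in VHL control cells, against 9.73, 9.73 and 9.58 in Vec control cells, and 9.05, 8.83 and 8.86 in VHL deprived cells, against 9.44, 9.58 and 9.45 in Vec deprived cells. The groups were separate, at -0.66 ± 0.07 and -0.58 ± 0.07 (limma adjusted p = 2.24e-06 and 7.61e-06). POLE, the catalytic subunit of polymerase epsilon, was lower in VHL cells, at 8.76, 8.80 and 8.73 in VHL control cells, against 9.22, 9.005 and 9.13 in Vec control cells (-0.36 ± 0.06, limma adjusted p = 2.23e-04), and at 8.72, 8.58 and 8.56 in VHL deprived cells, against 9.09, 9.07 and 9.06 in Vec deprived cells (-0.45 ± 0.06).

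POLE2, the accessory subunit of the same enzyme, was higher instead. It measured 8.94, 8.84 and 8.76 in VHL control cells, against 8.41, 8.37 and 8.37 in Vec control cells, and 8.79, 8.68 and 8.61 in VHL deprived cells, against 8.21, 8.11 and 8.14 in Vec deprived cells. The differences were 0.47 ± 0.06 (limma adjusted p = 1.69e-05) and 0.54 ± 0.06 (limma adjusted p = 4.13e-06), opposite in sign to those of POLE. POLD1, the catalytic subunit of polymerase delta, was lower in control medium (-0.20, limma adjusted p = 0.00686) and gave -0.10 in deprived medium (limma adjusted p = 0.146). PRIM1 was higher in deprived medium (0.25, limma adjusted p = 0.00287) and gave 0.14 in control medium (limma adjusted p = 0.0672), where it was called without Vec control replicate 1 (0.18, 0.0417). POLD2 and PRIM2 were not called, with values from 0.02 to 0.13.

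Subunits of the clamp loader parted in the same way. RFC3 measured 10.83, 10.82 and 10.74 in VHL control cells, against 9.74, 9.81 and 9.70 in Vec control cells, or 2.07-fold, and 10.46, 10.52 and 10.55 in VHL deprived cells, against 9.42, 9.50 and 9.596 in Vec deprived cells, or 2.01-fold. The log2 differences were 1.05 ± 0.06 (limma adjusted p = 4.82e-09) and 1.005 ± 0.06 (limma adjusted p = 7.02e-09), and the second RFC3 probe set gave 0.82 in control medium. RFC4, a further small subunit, measured 10.71, 10.68 and 10.70 in VHL control cells, against 10.34, 10.33 and 10.24 in Vec control cells, higher by 0.39 ± 0.05 (limma adjusted p = 1.81e-05), and in deprived medium 10.69, 10.65 and 10.67 in VHL deprived cells, against 10.23, 10.37 and 10.34 in Vec deprived cells, higher by 0.36 ± 0.05 (3.69e-05), with all VHL arrays above all Vec arrays. RFC1, the large subunit, measured 9.05, 9.005 and 9.03 in VHL control cells, against 9.55, 9.45 and 9.38 in Vec control cells, and 9.43, 9.28 and 9.27 in VHL deprived cells, against 9.65, 9.65 and 9.59 in Vec deprived cells. It was lower in VHL cells, at -0.43 ± 0.06 and -0.30 ± 0.06 (limma adjusted p = 2.57e-05 and 5.43e-04), and its dim probe set outside the _x_at and _s_at classes gave -0.07 and was not called. RFC5 was lower in deprived medium (-0.36 ± 0.06, limma adjusted p = 3.31e-04) and gave -0.10 in control medium, where the mean of its probe sets gave -0.32 and was called (limma adjusted p = 3.23e-05). RFC2 gave 0.05 and 0.02 and was not called.

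RPA3, the smallest subunit of RPA, measured 11.23, 11.26 and 11.30 in VHL control cells, against 10.74, 10.73 and 10.80 in Vec control cells, and 11.17, 11.20 and 11.18 in VHL deprived cells, against 10.77, 10.82 and 10.83 in Vec deprived cells. All VHL arrays were above all Vec arrays, with differences of 0.51 ± 0.04 (limma adjusted p = 4.12e-07) and 0.38 ± 0.04 (limma adjusted p = 6.93e-06). RPA1, the large subunit, was higher by 0.16 and 0.15 (limma adjusted p = 0.012 and 0.0169), calls lost without Vec control replicate 3 (limma adjusted p = 0.059) or VHL control replicate 2 (0.0531) in control medium and without Vec deprived replicate 3 (limma adjusted p = 0.0533) or VHL deprived replicate 2 (0.059) in deprived medium. RPA2 gave 0.11 in control medium (limma adjusted p = 0.0655) and was higher by 0.19 in deprived medium (limma adjusted p = 0.00277). PCNA gave -0.04 in control medium (limma adjusted p = 0.672) and was lower in deprived medium (-0.21 ± 0.06, limma adjusted p = 0.0133). The call in deprived medium was lost without VHL deprived replicate 1 (limma adjusted p = 0.052).

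TOP2A measured 11.86, 11.93 and 11.84 in VHL control cells, against 11.19, 11.27 and 11.05 in Vec control cells, and 11.71, 11.93 and 11.84 in VHL deprived cells, against 11.01, 11.12 and 11.09 in Vec deprived cells. It was higher in VHL cells by 0.71 ± 0.07 (limma adjusted p = 1.37e-06) and 0.75 ± 0.07 (limma adjusted p = 7.47e-07), with no overlap between the lines. LIG1 was higher as well, at 9.99, 9.95 and 9.96 in VHL deprived cells, against 9.46, 9.604 and 9.50 in Vec deprived cells, by 0.45 ± 0.06 (limma adjusted p = 5.87e-05), and at 9.80, 9.91 and 10.07 in VHL control cells, against 9.63, 9.59 and 9.65 in Vec control cells, by 0.30 ± 0.06. FEN1, which acts just before LIG1, was lower, with differences of -0.48 ± 0.05 and -0.52 ± 0.05 (limma adjusted p = 1.86e-06 and 9.23e-07). CHAF1A gave -0.26 and -0.37, both called, and CHAF1B -0.19, called, and -0.06 in deprived medium, not called. Nucleotide supply parted as well. TYMS measured 13.17, 13.17 and 13.15 in VHL control cells, against 12.85, 12.85 and 12.79 in Vec control cells, and 13.03, 13.02 and 12.98 in VHL deprived cells, against 12.73, 12.76 and 12.82 in Vec deprived cells, and was higher by 0.33 ± 0.04 and 0.24 ± 0.04 (limma adjusted p = 2.58e-05 and 4.15e-04). The second, dim probe set of TYMS had the opposite sign in both media, and the mean of its 2 probe sets gave 0.10 and 0.12 and was not called. RRM2 was lower, with differences of -0.49 ± 0.07 and -0.58 ± 0.07 (limma adjusted p = 9.32e-05 and 2.02e-05), and RRM1 gave -0.20 and -0.17, both called. In deprived medium the RRM1 call was lost without Vec deprived replicate 2 (limma adjusted p = 0.0546) or VHL deprived replicate 1 (0.073).

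A total of 18 of the 47 genes had more than 1 probe set. All probe sets of a gene had the same sign for 14 of the 18 in Vec deprivation, 11 in VHL deprivation, and 16 for the line difference in either medium. The exceptions in VHL deprivation were GINS3, MCM5, MCM7, ORC4, RFC5, TOP2A and TYMS, of which RFC5 and TYMS were called. In Vec deprivation they were GINS3, ORC5, RPA1 and TOP2A, none of them called, and for the line difference ORC5 and TYMS in each medium. For MCM4 all 4 probe sets were negative in both lines, from -0.34 to -0.13, and the brightest gave the largest fall in VHL cells. RRM2 gave -0.29 and -0.28 from its 2 probe sets in VHL cells.

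Other genes of the pathway were taken from further lists without the 47. Like the 47, these lists were chosen with earlier results of these data known. Of 27 measured further replication genes, 5 fell and 0 rose in Vec cells and 10 fell and 0 rose in VHL cells, with median changes of -0.13 and -0.08. That is 18.5% and 37.0% lower, against 2.06% and 5.48% of all genes. In Vec cells the called genes with the smallest adjusted p were ATAD2, a chromatin ATPase (-0.35, limma adjusted p = 0.009), SLBP, which binds histone mRNA (-0.27, 0.0131), and ORC6, another ORC subunit (-0.27, 0.0249). In VHL cells they were SLBP (-0.36, limma adjusted p = 7.96e-04), DSCC1, of an alternative clamp loader (-0.48, 9.30e-04), and ATAD2 (-0.31, 0.00752).

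The counts of the other lists stand against 2.06% lower and 2.11% higher among all genes in Vec cells, and 5.48% and 6.16% in VHL cells. Of 23 further nucleotide synthesis genes, 2 rose (8.70%) and 0 fell in Vec cells, and 2 rose and 2 fell (8.70% each) in VHL cells. The genes that rose were MTHFD2 (0.65 in Vec, 1.29 in VHL cells) and SHMT2 (0.27 and 0.41), mitochondrial enzymes of folate-dependent carbon metabolism that are also known targets of ATF4. In VHL cells DCK, which phosphorylates deoxycytidine, fell (-0.41, limma adjusted p = 0.0156). Of 30 regulators of the G1 to S transition, 0 rose and 2 fell (6.67%) in Vec cells, and 2 rose and 2 fell (6.67% each, near the shares of all genes) in VHL cells. CDC25A, the phosphatase that activates CDK2, fell in both (-0.32 and -0.60), CCND3 fell in Vec cells (-0.22), CCNE2 fell in VHL cells (-0.76, limma adjusted p = 5.15e-04), and MYC rose there (0.29). The E2F genes measured were not called. Of 24 mitosis genes, 2 fell (8.33%) and 0 rose in Vec cells (the spindle checkpoint genes BUB1 at -0.23 and BUB1B at -0.22), and 3 fell (12.5%) and 4 rose (16.7%) in VHL cells, among them CENPA, the centromere histone (0.32, higher), BUB1 (-0.21) and AURKB, a mitotic kinase (0.20, higher).

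Between the lines in control medium, where 23.1% of all genes were higher and 23% lower in VHL cells, mitosis genes were higher for 15 of 24 (62.5%) and lower for 5 (20.8%), with CCNB2 at 0.70, CENPF at 0.87 and CCNB1 at 0.81. Further replication genes were split at 7 higher (25.9%) and 10 lower (37.0%) of 27, with HELLS at -0.89, MCMBP at -0.62 and POLD4 at -0.67. Nucleotide synthesis genes were split at 7 (30.4%) and 10 (43.5%) of 23, with CTPS1 at -1.03, SHMT2 at -0.83 and CMPK1 at -0.65. G1 to S regulators were split at 7 (23.3%) and 11 (36.7%) of 30. Of these, CCND2, a D-type cyclin, was higher by 4.99, CDKN1C, an inhibitor of cyclin-dependent kinases, by 2.54, and TFDP1, the dimerization partner of E2F proteins, was lower at -1.003. In deprived medium, where 24.2% of all genes were higher and 23% lower, 19 of 24 mitosis genes were higher (79.2%) and 4 lower (16.7%).

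The genes outside the 47 whose levels followed most closely the mean of the 7 that fell in both lines were RHOB (Pearson r = 0.979 over 12 arrays), CHORDC1 (0.975), BAG3 (0.972), DNAJB1 (0.968) and MALT1 (0.960). The 12 arrays share 4 groups, and the genes were found by searching all genes tested. All 5 fell in both lines, which is likely for genes picked by likeness to genes that fell in both. RHOB gave -0.58 in Vec and -0.84 in VHL cells, and MALT1 -0.21 and -0.39.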

How the data were processed

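RNA from 12 samples was measured on single-colour Affymetrix arrays. The authors' deposited values are log2 expression values, with 22215 probe sets on each array. The unit was read from the values (3.26 to 14.79, with array medians of 7.12 to 7.18), and how they were normalized is not given in the sources used here. No detection call or filter was applied, and precision is limited by the 3 arrays in a group. The annotation gave 1 gene for 19064 probe sets, several for 1043 and none for 2108, and the gene IDs of 19052 single-gene probe sets matched RefSeq (GRCh38.p14), whose current symbols were used. Each of 11963 genes was represented by its brightest single-gene probe set. A mean per group was fitted over 12 arrays in limma 3.58.1 (R 4.3.3, 8 residual degrees of freedom), and each contrast was tested two-sided with Benjamini-Hochberg adjustment. The fit was tested on simulated data. Tables and motif counts were made in Python 3.11.15. Genes named with values on every array were those called in both deprivation comparisons, or called anywhere with a log2 change of at least 0.3 in size. ORC5, outside this rule, was added after its values were seen. CDC7, whose largest called change was -0.299, was also given on every array. Up to 3 called genes per further list were named by smallest adjusted p. The members and lists were chosen with earlier results of these data known. Samples were treated as unpaired. No batch is given in the labels used here. Results were recomputed with median centring, quantile normalization, a filter at the 30th percentile of gene means, the mean of probe sets, leaving out _x_at and _s_at probe sets, trend and robust moderation, the compared groups alone, a replicate block, and leaving out each array.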

Additional observations from a re-analysis of the deposited data

How the results depend on the processing

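No call reversed its direction under any alternative. With the compared groups alone, ORC1, POLE2, RFC3 and FEN1 were no longer called in Vec cells, nor MCM4, CDC7, CDC45, CHAF1A, RRM2 and TYMS in VHL cells. Under some settings of scaling, filter, probe set or moderation, MCM3, MCM4, PCNA, RPA1, RPA2 and RRM2 became called lower in Vec cells, and ORC3, MCM3, DBF4 and RPA1 in VHL cells. Of 3455 values of single genes recomputed over the 5 comparisons, 3318 kept their side of the threshold, 103 were no longer called and 34 became called. Genes that fell in Vec cells numbered 8, and 3 without _x_at and _s_at probe sets (33 of 47 genes measured), 4 with the compared groups alone in the fit, and 3 to 6 without 1 array. Among all genes, calls then numbered 500, 233, 311 and 253 to 303. GMNN and GINS1 were called under every alternative that measured them. With trend and robust moderation 1 gene, ORC5, rose in Vec cells, against 0. In VHL cells 14 fell, and 7 without _x_at and _s_at probe sets, 9 with the compared groups alone, and 9 to 14 without 1 array; 3 rose, and 1 without those probe sets and 2 to 3 without 1 array. The count of 9 came without VHL control replicate 1 or 2. GMNN, MCM10, GINS1, PCNA, RFC3 and FEN1 were called under every alternative that measured them. For VHL against Vec cells in control medium, 15 higher and 18 lower became 9 and 9 without _x_at and _s_at probe sets, and 13 to 15 and 16 to 18 without 1 array. In deprived medium 15 higher and 17 lower became 14 to 16 and 16 to 18 without 1 array, and 9 were lower without those probe sets. Calls over all genes in VHL deprivation were 1392, against 771 without those probe sets, 835 with the compared groups alone and 764 to 1302 without 1 array. In VHL against Vec cells they were 5520 and 5650 in control and deprived medium, against 3427 and 3505 without those probe sets. The difference of responses was called for 16 genes, 45 with trend and robust moderation and 11 to 16 without 1 array, with 0 of the 47 in each case. With the replicate block, 7 genes fell in Vec cells (FEN1 lost, limma adjusted p = 0.0522), 13 fell and 3 rose in VHL cells (TYMS lost, 0.0603), 15 were higher and 17 lower in VHL than in Vec cells in control medium (ORC1 lost, 0.0583), and no other call changed. The numbers are not known to pair the samples: residuals of same-numbered arrays correlated between -0.268 and 0.235 (18 pairs), and those of other pairs between -0.350 and 0.291 (36 pairs). Detection was not used here, so how far dim signals such as PRIM2's compress a change is not known.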
